A study of Mus musculus with 20 samples.

Results

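Medium conditioned by APTKA organoids was set against medium conditioned by APTK organoids within the irradiated arm of an RNA-seq study of cultured colon fibroblasts from C57BL6/J mice. The comparison holds 8 of the 20 libraries, chosen by their labels alone: 4 of fibroblasts given irradiated APTKA medium and 4 of fibroblasts given irradiated APTK medium. Both groups carry the label 5x2 Gy, and in both the fibroblasts were stimulated with the conditioned medium for 24 h in culture with fetal bovine serum. The remaining groups, also of 4 libraries each, are fibroblasts given APTKA medium without irradiation, fibroblasts given APTK medium without irradiation, and untreated wild-type fibroblasts. APTK and APTKA name organoid lines and are left unexplained in the labels, which also leave unsaid whether organoids, medium or fibroblasts received the dose. Fibroblasts irradiated without conditioned medium, and fibroblasts in organoid medium that no organoid had conditioned, are not among the groups. Libraries are called here by group and by the replicate number of the labels, I to IV. Nothing says that the 4 libraries of a group came from separate cultures or animals, so the spread on which p-values rest may be technical.

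The series is about inflammatory fibroblasts in rectal cancer and their bearing on therapy. Fibroblasts answer cytokines such as interleukin-1 and TNF through NF-kB, a family of transcription factors held in the cytoplasm by inhibitor proteins. Once those inhibitors are degraded, NF-kB enters the nucleus and turns on chemokine and cytokine genes, together with genes for its own inhibitors. Type I interferon acts through its own receptor and transcription factors on a separate set of antiviral genes, p53 acts after DNA damage on genes that stop the cell cycle, and the factor ATF4 of the integrated stress response acts on genes of amino acid supply.

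The total was 25.3 to 31.6 M counts per library in irradiated APTKA and 17.3 to 29.2 M in irradiated APTK. The label of a fibroblast fits the markers in both groups: Col1a1, Col1a2, Dcn and Vim were among 14 of 14 fibroblast markers tested, and their summed level was 30855 to 39942 counts per M counts of the library (CPM) in irradiated APTKA and 42735 to 50390 CPM in irradiated APTK. Of 13 epithelial markers 5 passed the expression filter, with a summed level of 4.55 to 5.41 CPM in irradiated APTKA and 5.50 to 6.66 CPM in irradiated APTK. Over the 4 libraries Epcam had 3 counts in irradiated APTKA and 2 in irradiated APTK, and Krt8 had 0 in both. Of 19 leukocyte markers 5 passed the filter, at 10.3 to 11.01 CPM in irradiated APTKA and 10.1 to 11.8 CPM in irradiated APTK, and Ptprc, which marks all leukocytes, had 0 counts in irradiated APTKA and 6 in irradiated APTK. Of 10 endothelial markers 6 passed, at 13.8 to 18.2 CPM in irradiated APTKA and 12.9 to 15.6 CPM in irradiated APTK. In bulk RNA, fewer cells of a type and less RNA per cell cannot be told apart.

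The library labelled irradiated APTK IV stood apart from its group. Over the 10491 genes with a mean log2 CPM of at least 2, its root mean square log2 distance was 0.248 to the mean of the other 3 irradiated APTK libraries and 0.177 to the mean of the APTK libraries without irradiation. The other 7 irradiated libraries lay nearer to their own group, irradiated APTK II only just, at 0.304 against 0.308. Irradiated APTK II thus also stood apart, and lay farther from the rest of its group than IV did. On the third principal component it lay at -40.8, against -3.94, -5.41 and 13.4 for irradiated APTK I, III and IV. It also had the fewest counts, 17.3 M. The plainest single case was Spp1, the gene of the matricellular protein osteopontin. Spp1 had 147, 146, 159 and 134 CPM in irradiated APTKA and 60.6, 64.0, 67.0 and 10.6 CPM in irradiated APTK I to IV, and its 4 libraries of APTK medium without irradiation had 14.3, 12.1, 14.7 and 10.9 CPM. Irradiated APTK IV thus lay at the level of the medium without irradiation. Every comparison of the irradiated media was also fitted without it, and values without it stand beside many of the results below that it changes, though not all.

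RNA composition also differed within the irradiated APTK group. Mitochondrially encoded genes took 0.442 to 0.586% of counts in irradiated APTKA and 0.534 to 1.23% in irradiated APTK. This share takes in every gene whose symbol starts with mt-, more than the 13 listed as mitochondrially encoded. The 13 listed summed to 1896 to 2306 CPM in irradiated APTKA and 1908 to 4639 CPM in irradiated APTK. Of these 13 genes 7 were tested and the rest had 0 counts in all libraries, so both measures miss part of them. Lars2, a mitochondrial leucyl-tRNA synthetase gene singled out here after its values were seen, had 77.1, 60.3, 27.5 and 71.9 CPM in irradiated APTKA and 4239, 14.05, 90.0 and 3222 CPM in irradiated APTK. Irradiated APTK I and IV were therefore far above the rest, while II lay below all irradiated APTKA libraries and III just above them. The share of mitochondrially encoded genes did not run with Lars2, at 1.21, 1.23, 0.534 and 1.01% in irradiated APTK I to IV. CT010467.1, Gm23935, Mir6236 and Gm15564 were likewise high in irradiated APTK I and IV alone among the 8 libraries, and all 5 passed the test as lower in irradiated APTKA although the libraries of the groups overlapped. Such unevenness was not confined to irradiated APTK. Lars2 had 2388, 54.9, 71.4 and 562 CPM in untreated fibroblasts and 427.5, 28.6, 507 and 31.6 CPM in plain APTKA medium. CT010467.1 had 13620, 185, 210 and 2453 CPM in untreated fibroblasts and 2451, 124, 3256 and 146 CPM in plain APTKA medium. None of the 5 belongs to a list used below, and what part this composition has in other results was not tested. Among the 222 genes named by rule are 65 whose exons overlap those of a second gene, in 56 cases on the other strand, Pdgfra, Spp1, Cdkn1a, Ackr4, Nrg1, Spry1, Vcam1, Il1a and Hgf among them. The strand setting of the counting is not given in the sources used here, so the reads of such pairs cannot be told apart.

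Of 14820 genes tested, 9090 (61.3%) differed between irradiated APTKA and irradiated APTK medium at an adjusted p below 0.05, by edgeR's quasi-likelihood test. There were 4468 genes higher (30.1%) and 4622 lower (31.2%), and 1681 (11.3%) differed at least 2-fold, 593 higher (4.00%) and 1088 lower (7.34%). The 4 libraries of each group did not overlap for 7628 genes (51.5%), of which 7452 also passed the test (50.3% of all). The median log2 fold change over all genes was -0.03, and the median of its size 0.36. Without irradiated APTK IV, 8787 of 15037 genes passed (58.4%), 4366 higher (29.0%) and 4421 lower (29.4%). With shares as high as these, a gene past the threshold is common, so the text turns on size, on agreement between libraries and on how many members of a gene group moved one way.

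**Figure D1:**
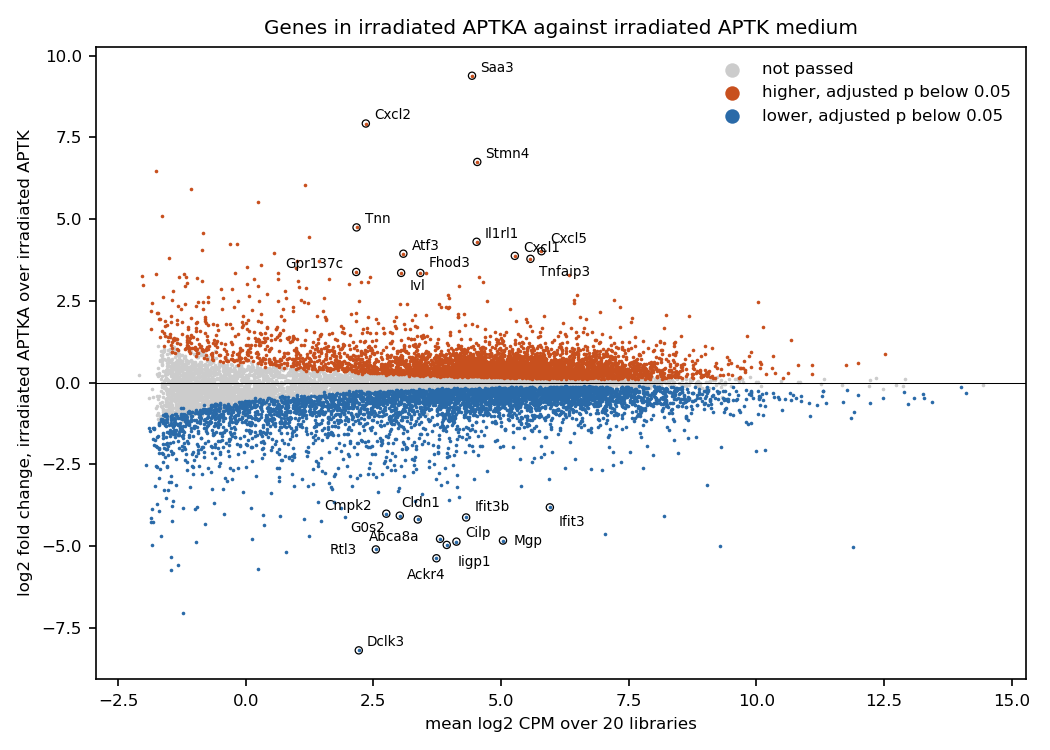
Each point is 1 of 14820 genes, with its mean log2 CPM over 20 libraries on the horizontal axis and its log2 fold change, irradiated APTKA over irradiated APTK, on the vertical axis; orange and blue points passed the test as higher and lower. The 12 largest rises and 12 largest falls of the naming rule are ringed, from Saa3 at 9.38 to Dclk3 at -8.19.

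Chemokines that draw neutrophils, the acute-phase gene Saa3 and the NF-kB feedback inhibitor Tnfaip3 were among the largest rises. The 12 largest rises and 12 largest falls were picked among genes whose libraries did not overlap, so their lack of overlap follows from the rule. Saa3, a serum amyloid of the acute phase (ENSMUSG00000040026, chr7:46711998-46715700), had 42.2, 63.6, 36.1 and 19.5 CPM in irradiated APTKA and 0.0550, 0.0573, 0.0351 and 0.0781 CPM in irradiated APTK. The lowest irradiated APTKA library was IV, and none of the irradiated APTK libraries reached 0.1 CPM. Its log2 fold change was 9.38 (SE 0.90, adjusted p = 1.60e-07). Stmn4, a stathmin-family microtubule regulator (ENSMUSG00000022044, chr14:66344296-66361680), had 54.4, 51.4, 54.7 and 51.9 CPM in irradiated APTKA and 0.550, 0.287, 0.491 and 0.586 CPM in irradiated APTK, a log2 fold change of 6.75 (SE 0.15). Its 4 libraries within each group lay close together. Il1rl1, the receptor of interleukin-33 (ENSMUSG00000026069, chr1:40429570-40465415), had 56.4, 48.2, 57.6 and 46.8 CPM in irradiated APTKA and 2.64, 2.70, 3.19 and 1.99 CPM in irradiated APTK, with no overlap and a log2 fold change of 4.31 (SE 0.11). The other rises among the 12 were Cxcl2 (7.92), the matrix glycoprotein Tnn (4.75), Cxcl5 (4.02), the stress transcription factor Atf3 (3.94), Cxcl1 (3.88), Tnfaip3 (3.78), Gpr137c (3.38), the cornified envelope protein involucrin, Ivl (3.35), and the formin Fhod3 (3.35).

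The largest falls joined interferon-inducible genes with genes of matrix, transport and lipid handling. Dclk3, a doublecortin-like kinase (ENSMUSG00000032500, chr9:111439081-111489118), had 2 counts over the 4 irradiated APTKA libraries and 583 over the 4 irradiated APTK libraries. The ratio, irradiated APTK over irradiated APTKA, was 369 with an exact 95% counting interval of 102 to 3058. Ackr4, a scavenger receptor of chemokines, had 0.684, 1.18, 0.621 and 1.04 CPM in irradiated APTKA and 41.1, 50.4, 42.5 and 15.7 CPM in irradiated APTK, lowest in IV, with a log2 fold change of -5.37 and of -5.63 without IV. Mgp, an inhibitor of calcification, had 3.78, 4.43, 3.72 and 1.86 CPM in irradiated APTKA and 100.7, 98.7, 162 and 33.1 CPM in irradiated APTK, again lowest in IV, with -4.83 and -5.12 without IV. Cilp, a cartilage matrix protein (ENSMUSG00000042254, chr9:65265180-65280605), had 0.540, 0.433, 0.272 and 0.681 CPM in irradiated APTKA and 11.7, 13.8, 17.8 and 13.2 CPM in irradiated APTK, with no overlap (-4.86, SE 0.17). The remaining falls among the 12 were Rtl3 (-5.10), the interferon-inducible GTPase Iigp1 (-4.96), the lipid transporter Abca8a (-4.78), the tight junction gene Cldn1 (-4.19), Ifit3b (-4.12), the lipase inhibitor G0s2 (-4.07), the nucleotide kinase Cmpk2 (-4.01) and Ifit3 (-3.82). The plot of fold change against level marks all 24.

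Here and below, the few members that went against their list are named even where the naming rule did not take them, after their values were seen. Every list count between the irradiated media stands against 30.1% of all genes higher and 31.2% lower. A count near these shares is no more than is found over all genes. Of 6 neutrophil-attracting CXC chemokines, all of them tested, 5 rose and 1 fell, where 30.1% of all genes were higher. Their median log2 fold change was 3.62, and 4.12 without irradiated APTK IV. Cxcl1 (ENSMUSG00000029380, chr5:90891241-90893115) had 76.7, 85.8, 88.2 and 80.8 CPM in irradiated APTKA and 4.62, 6.08, 4.21 and 7.65 CPM in irradiated APTK, 14.7-fold (log2 3.88, SE 0.11, adjusted p = 4.51e-19). Every irradiated APTKA library lay above every irradiated APTK library. Cxcl5 (ENSMUSG00000029371, chr5:90759360-90761624) had 123, 136, 121 and 102 CPM in irradiated APTKA and 7.20, 6.08, 6.94 and 9.29 CPM in irradiated APTK, 16.2-fold (adjusted p = 2.10e-15). Its irradiated APTKA libraries spread from IV to II and its irradiated APTK libraries stayed below 10 CPM. Cxcl2 had 10.9, 12.1, 13.0 and 11.96 CPM in irradiated APTKA and 0.110, 0, 0 and 0.0781 CPM in irradiated APTK, so it was close to undetected in irradiated APTK. Cxcl3 had 1.22, 1.30, 2.06 and 1.58 CPM in irradiated APTKA and 0, 0.115, 0.0701 and 0.351 CPM in irradiated APTK (log2 3.36), and Ppbp, the precursor of platelet basic protein, rose by 2.18. Cxcl15 was the member that fell, at 0.180, 0.248, 0.272 and 0.287 CPM in irradiated APTKA and 0.220, 0.459, 0.351 and 1.17 CPM in irradiated APTK (-1.20, adjusted p = 0.0242). Its groups overlapped and irradiated APTK IV was the highest library, without which it no longer passed (-0.47, adjusted p = 0.401).

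Among the genes that rose, 4 are shown with the stretch of their promoter that holds a kappa-B motif, because NF-kB is known to bind such sites. The letters searched were GGG, any 3 bases and TTCC on both strands, in RefSeq windows of 250 bases before to 50 after the gene start (build GRCm38.p6), and 5.56% of 32851 windows hold them. Among genes past the threshold that have a window, 3 of 5 CXC chemokines and 7 of 17 genes of the NF-kB list hold a match. Counted by window, as the 5.56% is, these are 3 of 5 and 10 of 21. Capitals mark the matches, with 20 bases on either side, 5′ to 3′ on the strand of the gene.
Cxcl1 (chr5:90891136-90891204, plus strand): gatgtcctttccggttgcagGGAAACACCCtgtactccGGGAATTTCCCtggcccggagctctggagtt
Cxcl2 (chr5:90903782-90903850, plus strand): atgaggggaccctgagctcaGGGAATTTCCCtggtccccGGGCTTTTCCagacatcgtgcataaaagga
Cxcl3 (chr5:90786008-90786080, plus strand): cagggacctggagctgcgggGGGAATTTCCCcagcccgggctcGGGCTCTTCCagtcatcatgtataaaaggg
Nfkbia (chr12:55492647-55492696, minus strand): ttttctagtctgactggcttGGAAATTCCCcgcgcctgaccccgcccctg
The run GGGAATTTCCC shared by Cxcl1, Cxcl2 and Cxcl3 holds 2 overlapping matches, 1 on each strand. A match describes the letters only.

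Chemokines for monocytes and lymphocytes were split. Of 9 tested members of 14 listed, 5 rose and 1 fell (median 0.69, and 0.55 without irradiated APTK IV). Ccl2, which attracts monocytes (ENSMUSG00000035385, chr11:82035571-82037453), had 277, 336, 314 and 255 CPM in irradiated APTKA and 63.4, 73.7, 68.0 and 36.0 CPM in irradiated APTK, 4.92-fold (adjusted p = 6.39e-09). The groups did not overlap, and irradiated APTK IV was the lowest of all 8. Ccl7, a close relative, averaged 323 ± 34.2 CPM in irradiated APTKA and 122 ± 30.4 CPM in irradiated APTK (SD, n = 4 each; log2 1.40), Cxcl16 rose by 0.74 and Cxcl10 by 0.73, the last with overlapping libraries. Ccl9 was the fifth member that rose (0.60), but not without irradiated APTK IV (0.55, adjusted p = 0.0686), which leaves 4. Cx3cl1, fractalkine, fell, with 2.38, 3.25, 1.94 and 1.33 CPM in irradiated APTKA and 14.1, 11.6, 16.8 and 9.80 CPM in irradiated APTK (-2.54). Cxcl12, which retains leukocytes in stroma, averaged 100.5 ± 4.65 CPM in irradiated APTKA and 99.3 ± 15.9 CPM in irradiated APTK, a difference within the spread of the libraries (log2 0.02, adjusted p = 0.898).

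Of 15 tested inflammatory cytokines and mediators (20 listed) 12 rose and 1 fell, with a median of 1.70, and 4 rose when only genes of at least 5 CPM in 4 libraries were tested. Il6, the ligand of the STAT3 pathway, had 3.85, 2.94, 4.00 and 2.87 CPM in irradiated APTKA and 0.934, 0.975, 0.631 and 0.547 CPM in irradiated APTK, 4.56-fold (adjusted p = 9.06e-10), with no overlap. Lif, another ligand of that family, had 13.7, 17.7, 18.0 and 13.5 CPM in irradiated APTKA and 6.10, 4.99, 7.26 and 5.93 CPM in irradiated APTK, 2.56-fold. Csf2, the granulocyte-macrophage growth factor, had 49 counts over the 4 irradiated APTKA libraries and 0 over the 4 irradiated APTK libraries, at least 12.9-fold higher when irradiated APTK is set to 3 counts in all. Csf3, the granulocyte growth factor, had 0.793, 0.712, 0.659 and 1.11 CPM in irradiated APTKA and 0, 0, 0.0351 and 0.117 CPM in irradiated APTK. Complement C3 rose to 3.23 ± 0.723 CPM in irradiated APTKA, against 0.217 ± 0.169 CPM in irradiated APTK (log2 3.71), and Il1a, an interleukin-1 ligand, to 0.773 ± 0.321 CPM in irradiated APTKA, against 0.145 ± 0.0716 CPM in irradiated APTK (2.36). Ptgs2, the inducible cyclooxygenase of prostaglandin synthesis, had 2008, 1741, 2127 and 2231 CPM in irradiated APTKA and 684, 659, 589.8 and 560.0 CPM in irradiated APTK, 3.25-fold. The alarmin Il33, ligand of Il1rl1, was the member that fell, with 0.144, 0.155, 0.233 and 0.215 CPM in irradiated APTKA and 0.715, 0.516, 0.842 and 0.273 CPM in irradiated APTK (-1.65). Il1b had 0 counts in both groups and was not tested. Saa1 and Saa2, also untested, had 1 count each in irradiated APTKA and 0 in irradiated APTK, and the untested Lcn2 had 37 and 0.

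NF-kB subunits, inhibitors and feedback genes rose in 20 of 24 cases and fell in 2, with a median of 0.79. The inhibitor Nfkbia (ENSMUSG00000021025, chr12:55489410-55492647) had 150.4, 162, 181 and 159 CPM in irradiated APTKA and 17.9, 15.4, 16.1 and 17.3 CPM in irradiated APTK, 9.80-fold (adjusted p = 8.44e-23). Tnfaip3, a deubiquitinase that ends NF-kB signalling (ENSMUSG00000019850, chr10:19000910-19015657), had 87.4, 98.5, 105 and 105 CPM in irradiated APTKA and 6.87, 7.05, 7.68 and 7.03 CPM in irradiated APTK, 13.8-fold. In both genes the gap between groups was many times the spread within them. The adaptor Traf1 had 109 counts over the irradiated APTKA libraries and 1 over the irradiated APTK libraries (ratio 86.0, exact 95% counting interval 15.1 to 3428), and the inhibitor Tnip3 41 and 3 (ratio 10.8, interval 3.44 to 54.4). The adhesion molecule Vcam1 fell, at 159 ± 11.9 CPM in irradiated APTKA and 284 ± 44.1 CPM in irradiated APTK (-0.84), as did Tnfaip8 (-0.27).

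The receptor side moved less uniformly. Of 18 tested members of the IL-1 family (24 listed) 4 rose and 8 fell (median -0.13): Il1rl1, Il1a, Tab1 (0.86) and Traf6 (0.32) rose, while Il1r1, the signalling receptor of interleukin-1, fell, with 32.7, 32.01, 31.3 and 25.5 CPM in irradiated APTKA and 60.3, 72.5, 69.4 and 57.1 CPM in irradiated APTK (-1.09, adjusted p = 1.01e-11). Of 17 genes of the STAT3 pathway and its receptors 9 rose and 5 fell (median 0.19). The shared receptor subunit Il6st fell to 226 ± 11.96 CPM in irradiated APTKA, against 368 ± 61.8 CPM in irradiated APTK (-0.71), and the kinase Jak2 (-0.80), the feedback inhibitor Socs1 (-0.91) and the receptors Il6ra (-0.50) and Il11ra1 (-0.61) also fell, while the feedback inhibitor Cish rose (0.76).

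Type I interferon-stimulated genes were lower in irradiated APTKA almost without exception. Of 35 members, all tested, 34 fell and 0 rose, where 31.2% of all genes were lower, and the median was -2.08. Without irradiated APTK IV the counts were also 34 and 0, and the median was -1.96. Ifit3, an interferon-induced antiviral protein (ENSMUSG00000074896, chr19:34583531-34588731), had 5.58, 7.96, 6.21 and 4.37 CPM in irradiated APTKA and 72.3, 111, 50.8 and 109 CPM in irradiated APTK (log2 -3.82, SE 0.37, adjusted p = 1.84e-07). The irradiated APTK libraries differed among themselves, II and IV being about as high as each other and III lowest, and none came near the irradiated APTKA libraries. Ifit1 had 4.54, 7.86, 8.42 and 3.33 CPM in irradiated APTKA and 41.3, 68.7, 32.97 and 73.0 CPM in irradiated APTK (-3.15), again lowest in III and highest in II and IV within irradiated APTK. Mx1, an antiviral GTPase, had 0.108, 0.0619, 0.155 and 0.0358 CPM in irradiated APTKA and 1.21, 1.72, 1.02 and 3.55 CPM in irradiated APTK (-4.36, and -3.79 without IV). Ifit2 was the member that did not pass (-0.151, adjusted p = 0.307).

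The promoters of 3 of these genes are shown for the letters TTTC, any 2 bases and TTTC, the core of the element that interferon-activated factors bind, searched on both strands in the same windows with these results already known. It occurs in 3.44% of the 32851 windows and in 14 of 23 genes of the list that passed the test and have a window. Counted by window, these are 15 of 27. Capitals mark the matches, which do not overlap.
Ifit3b (chr19:34607749-34607832, plus strand): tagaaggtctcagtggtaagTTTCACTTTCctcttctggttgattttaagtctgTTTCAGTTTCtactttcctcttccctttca
Ifit3 (chr19:34583353-34583436, plus strand): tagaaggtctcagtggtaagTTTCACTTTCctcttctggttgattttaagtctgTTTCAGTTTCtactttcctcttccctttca
Rsad2 (chr12:26456543-26456592, minus strand): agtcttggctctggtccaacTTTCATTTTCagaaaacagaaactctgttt
The stretches of Ifit3b and Ifit3, neighbours on chromosome 19, are identical letter for letter, and reads of near-identical genes can be split or dropped in counting, so their separate values are uncertain. Rsad2, the antiviral enzyme viperin, fell too (log2 -3.63).

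Major histocompatibility class I presentation and interferon-gamma targets fell in 21 of 26 tested cases and rose in 1, with a median of -0.58. The largest falls were those of the GTPases Iigp1, with 1.04, 0.650, 0.698 and 0.466 CPM in irradiated APTKA and 18.1, 31.997, 13.2 and 26.9 CPM in irradiated APTK, and Tgtp2 (-4.18), Gbp3 (-2.09) and Igtp (-1.94). These belong to families of close copies, which makes their separate values uncertain. Tap1, a subunit of the peptide transporter, was the member that rose (0.25, adjusted p = 0.0106), with overlapping libraries and a call lost under upper quartile scaling.

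Targets of p53 were higher in irradiated APTKA in 25 of 34 cases and lower in 2, with a median of 0.69. Mdm2, which degrades p53 (ENSMUSG00000020184, chr10:117688875-117710758), had 463, 475, 479 and 446 CPM in irradiated APTKA and 202, 227, 197 and 178 CPM in irradiated APTK, 2.32-fold (adjusted p = 2.84e-14). Cdkn1a, the cyclin-dependent kinase inhibitor p21, had 279, 262, 294 and 265 CPM in irradiated APTKA and 129.5, 114.6, 122 and 138 CPM in irradiated APTK, 2.18-fold. Neither gene overlapped between groups. The pro-apoptotic gene Pmaip1 rose by 1.94, the antiproliferative gene Btg2 by 1.85, the secreted factor Gdf15 by 1.37 and Trp53 itself by 0.66. Gadd45a, a DNA damage-inducible growth arrest gene, fell, with 17.2, 18.1, 19.0 and 14.04 CPM in irradiated APTKA and 27.8, 35.6, 31.6 and 32.4 CPM in irradiated APTK (-0.90), and so did Sesn1 (-0.66).

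Genes of the cell cycle and of DNA repair were mixed. Of 36 DNA damage signalling and repair genes 10 rose and 11 fell (median -0.06), with the checkpoint kinase Chek2 at -0.79 and the mismatch repair gene Msh6 at 0.52. Of 39 replication genes 13 rose and 10 fell (median -0.04): the helicase subunit Mcm7 rose to 34.1 ± 1.16 CPM in irradiated APTKA, against 18.2 ± 0.716 CPM in irradiated APTK (0.91), and the cyclin Ccne2 fell (-1.16). Of 31 mitosis genes 3 rose and 18 fell (median -0.35), among them the kinase Cdk1, with 10.7, 9.38, 9.19 and 10.8 CPM in irradiated APTKA and 21.9, 23.3, 20.1 and 16.7 CPM in irradiated APTK (-1.03), and the transcription factor Foxm1 (-0.89), while Prc1, which bundles spindle microtubules, Plk1 and Aurka rose (0.74, 0.51 and 0.28). Mki67, the proliferation marker, averaged 9.52 ± 1.11 CPM in irradiated APTKA and 11.98 ± 2.34 CPM in irradiated APTK and did not pass (-0.32, adjusted p = 0.0626), though it passed as lower under 6 of 16 alternatives, with adjusted p from 0.0193 to 0.0493. Of 16 cyclin-dependent kinase inhibitors and nuclear genes linked to senescence, Cdkn1a and Cdkn2b (0.18) rose and 9 fell (median -0.28), including Cdkn1b (-0.87), Cdkn1c (-1.24), Hmga2 (-1.38) and Cdkn2a (-0.26), the last with overlapping libraries and no call without irradiated APTK IV (-0.24, adjusted p = 0.0584).

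Stress response genes under ATF4 and genes of amino acid supply were lower in irradiated APTKA. Of 20 stress response genes 15 fell and 3 rose (median -0.47), and of 35 tested genes of amino acid transport, synthesis and tRNA charging 27 fell and 3 rose (median -0.65). Trib3, a pseudokinase induced by ATF4 (ENSMUSG00000032715, chr2:152337422-152344032), had 4.21, 5.20, 5.70 and 5.87 CPM in irradiated APTKA and 23.4, 41.0, 28.5 and 68.9 CPM in irradiated APTK (log2 -2.96, and -2.55 without IV). Irradiated APTK IV was the highest and I the lowest of that group, and the groups did not overlap. Chac1, which degrades glutathione, had 1.80, 1.24, 1.67 and 1.254 CPM in irradiated APTKA and 9.12, 21.3, 10.3 and 13.7 CPM in irradiated APTK (-3.18). Slc7a5, a transporter of large neutral amino acids (ENSMUSG00000040010, chr8:121881150-121907694), had 30.7, 30.5, 29.9 and 27.7 CPM in irradiated APTKA and 163, 144, 189 and 179 CPM in irradiated APTK (-2.51, SE 0.083, adjusted p = 3.02e-18). Both groups were tight, with no overlap. The glycine transporter Slc6a9 (-2.22), the folate enzyme Mthfd2 (-2.11), the cysteine-forming enzyme Cth (-2.02) and the cystine transporter Slc7a11 (-1.60) also fell. Members that rose were Atf3, Gdf15 and Ppp1r15a (0.99) of the stress response list, and Shmt1 (0.72), Hars (0.32) and Tars (0.16) of the amino acid list.

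For Fgf21, a stress-induced hormone (-3.68, at most 0.116 CPM in irradiated APTKA and 0.210 to 1.29 CPM in irradiated APTK), and for Chac1 the promoter stretch with a match to TGATGNAA is shown, the core of the element that ATF4 binds. It occurs in 3.97% of the windows, in 7 of 17 genes of the stress response list and in 9 of 22 genes of the amino acid list that passed and have a window. These counts take genes that passed in either direction, and Atf3 and Tars, which rose, are among the matches. Counted by window, the lists give 7 of 23 and 9 of 26. Capitals mark the match, which lies on the opposite strand and is thus printed as its reverse complement.
Fgf21 (chr7:45615602-45615649, minus strand): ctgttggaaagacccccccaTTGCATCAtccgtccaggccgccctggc
Chac1 (chr2:119351029-119351076, plus strand): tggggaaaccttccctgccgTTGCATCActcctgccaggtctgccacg

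Protein folding and lipid synthesis genes fell with them. Of 28 genes of folding and degradation in the endoplasmic reticulum 24 fell and 2 rose (median -0.55). The chaperone Hspa5 had 684, 679, 679 and 659.8 CPM in irradiated APTKA and 1331, 1271, 1303 and 1312 CPM in irradiated APTK (-0.95, adjusted p = 5.26e-15), and all 8 libraries lay close to their group's mean. Herpud1 (-1.61), calreticulin, Calr (-1.23), and the disulfide isomerase Pdia4 (-1.09) fell too, and the stress sensors Ern1 (0.42) and Atf6 (0.19) rose. Of 32 genes of cholesterol and fatty acid synthesis 24 fell and 3 rose (median -0.63). Hmgcs1, an early enzyme of cholesterol synthesis, averaged 79.6 ± 3.56 CPM in irradiated APTKA and 145 ± 6.48 CPM in irradiated APTK (-0.86), and the sterol carrier Stard4 (-1.72) and the sterol sensor partner Insig1 (-1.52) fell further. The cholesterol exporters Abca1 (0.90) and Abcg1 (0.58) rose, as did Srebf1 (0.29).

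Genes of energy metabolism were divided, apart from the mitochondrially encoded ones. Of 24 glycolysis genes 5 rose and 12 fell (median -0.30). The hexokinase Hk2 (0.67), Tpi1 (0.17), Eno1 (0.31), Pkm (0.34) and the lactate dehydrogenase subunit Ldha (0.27) rose, and the glycogen phosphorylase Pygl fell most among those named (-1.35). Slc16a3, the lactate exporter, averaged 109.8 ± 7.67 CPM in irradiated APTKA and 111 ± 22.0 CPM in irradiated APTK and did not pass (-0.01). Of 28 hypoxia response genes 5 rose and 14 fell (median -0.16), with Egln3 (1.41), Hif1a (0.70), Vegfa (0.37) and Bhlhe40 (0.30) among those that rose. Of 30 nuclear-encoded genes of the respiratory chain 7 rose and 8 fell (median 0.05), and of 24 antioxidant genes of the NRF2 factor 6 rose and 12 fell (median -0.31). The ferritin subunit Fth1 fell, with 200.4, 191, 199.5 and 203 CPM in irradiated APTKA and 461, 456, 468 and 392 CPM in irradiated APTK (-1.16). All 7 tested mitochondrially encoded genes fell (median -0.999), among them mt-Nd5, with 50.9, 37.2, 47.9 and 49.8 CPM in irradiated APTKA and 141, 189, 56.2 and 107 CPM in irradiated APTK (-1.40). In mt-Nd2, mt-Nd4, mt-Nd5 and mt-Nd6 irradiated APTK III was the library of its group nearest to irradiated APTKA, and for 4 of the 7 the groups overlapped. The remaining 6 listed mitochondrially encoded genes had 0 counts in all libraries and were not tested.

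**Figure D2:**
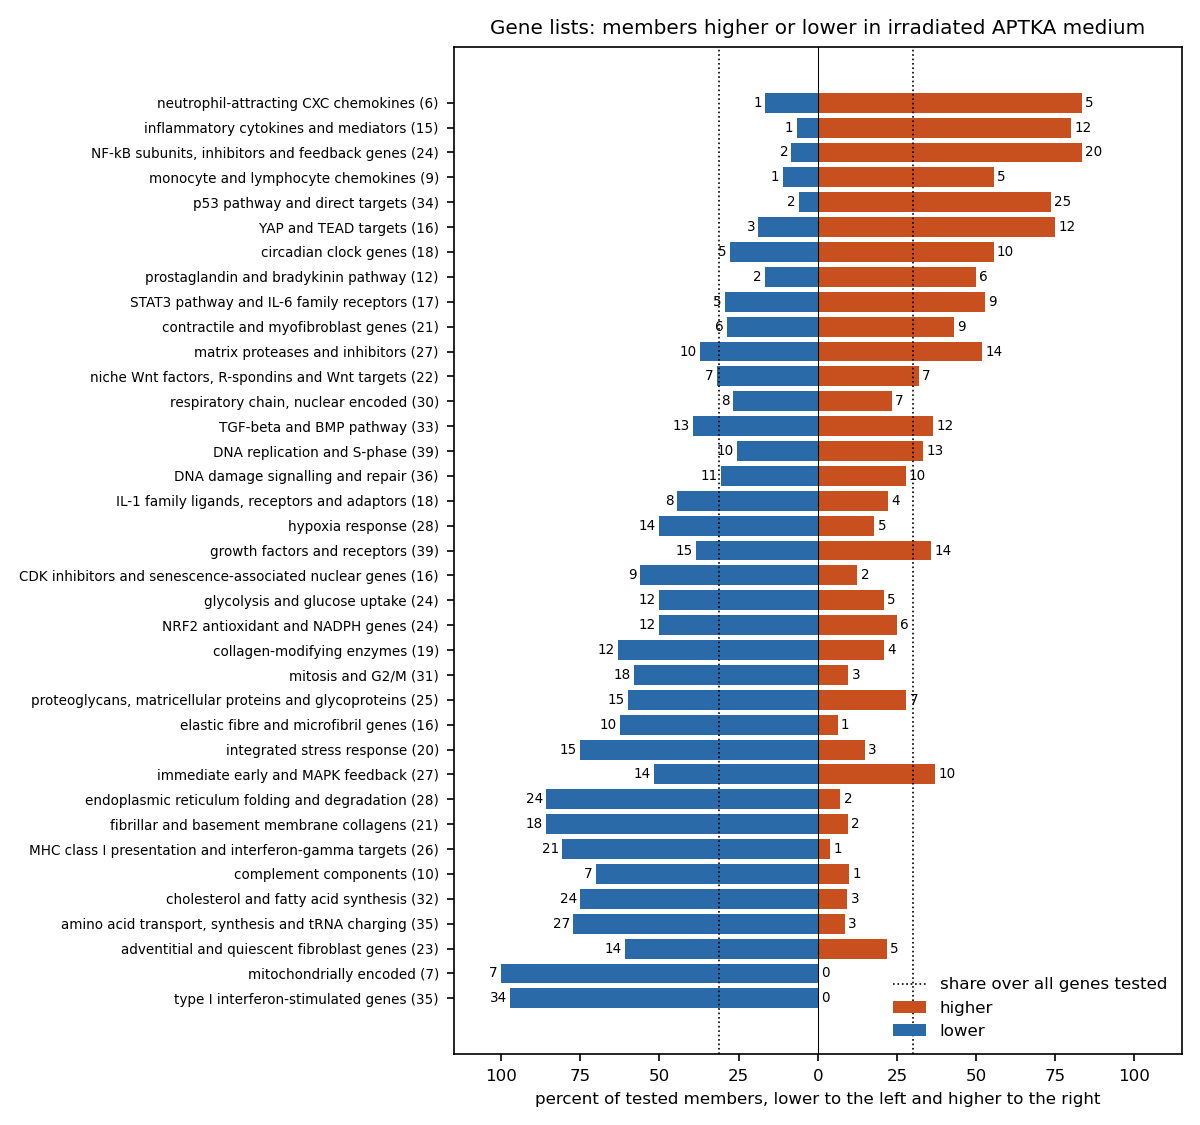
Bars give, for each gene list, the percent of its tested members that passed the test as higher (orange, to the right) or lower (blue, to the left) in irradiated APTKA, with the number of genes at the bar's end and the number tested in brackets. Dotted lines mark the shares over all genes, 30.1% higher and 31.2% lower; interferon-stimulated genes stand at 34 of 35 lower and the NF-kB list at 20 of 24 higher.

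Matrix genes were mostly lower, while several proteases were higher. Of 21 collagens 18 fell and 2 rose (median -0.56). Col8a2, of short-chain collagen networks, had 1.87, 2.45, 1.63 and 1.54 CPM in irradiated APTKA and 14.2, 9.92, 20.1 and 17.7 CPM in irradiated APTK (-3.05), and Col11a1 (-1.44) and Col6a2 (-1.37) fell without overlap. Col1a1, the main fibrillar collagen, averaged 8304 ± 861 CPM in irradiated APTKA and 10544 ± 1926 CPM in irradiated APTK; its libraries overlapped (-0.34, adjusted p = 0.0219), and it did not pass without irradiated APTK IV (-0.26, adjusted p = 0.0937). Col5a3 (1.26) and Col12a1 (0.30) rose. Of 19 collagen-modifying enzymes 4 rose and 12 fell (median -0.32), the prolyl hydroxylase subunit P4ha3 most (-1.89), while the procollagen protease Adamts14 (1.22), Loxl1 (0.46), Pcolce2 (0.27) and P3h2 (0.95) rose. Of 16 elastic fibre genes 10 fell and 1 rose (median -0.47, and -0.36 without irradiated APTK IV). The microfibril protein Mfap4 (-2.61) and elastin, Eln (-1.26), were among those that fell, and the fibrillin Fbn2 rose (1.56). Of 25 tested proteoglycans and matricellular genes 7 rose and 15 fell (median -0.41): decorin, Dcn, averaged 1342 ± 216 CPM in irradiated APTKA and 2732 ± 374 CPM in irradiated APTK (-1.03), and Smoc2, a calcium-binding matricellular protein, 53.3 ± 3.42 CPM in irradiated APTKA and 229.8 ± 11.3 CPM in irradiated APTK (-2.11). Spp1 rose by 1.54, and by 1.20 without irradiated APTK IV (adjusted p = 3.79e-12).

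Of 27 tested matrix proteases and inhibitors 14 rose and 10 fell (median 0.12). The stromelysin Mmp3 had 6.48, 7.83, 5.20 and 6.91 CPM in irradiated APTKA and 0.770, 0.975, 1.23 and 0 CPM in irradiated APTK (log2 3.16, and 2.69 without IV). The gelatinase Mmp9 had 29.8, 35.0, 23.7 and 20.7 CPM in irradiated APTKA and 4.84, 3.67, 6.66 and 2.73 CPM in irradiated APTK (2.59), and the macrophage elastase Mmp12 4.29, 4.86, 4.34 and 4.66 CPM in irradiated APTKA and 0.330, 0.745, 0.421 and 0.156 CPM in irradiated APTK (3.52). In all 3 genes irradiated APTK IV was the lowest library and the groups did not overlap. The inhibitor Timp3 fell (-0.99), and the protease Adamts9 fell most (-1.12).

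Contractile and TGF-beta genes gave no single direction. Of 21 contractile genes 9 rose and 6 fell (median 0.14). Acta2, smooth muscle actin, had 3044, 2645, 3039 and 3519.7 CPM in irradiated APTKA and 3499, 3107, 3166 and 3183 CPM in irradiated APTK, overlapping groups and no call (-0.08, adjusted p = 0.352). Of 33 tested genes of the TGF-beta and BMP pathways 12 rose and 13 fell (median 0.01). The ligand Bmp2 had 4.11, 4.49, 3.49 and 3.73 CPM in irradiated APTKA and 0.220, 0, 0.0351 and 0 CPM in irradiated APTK (6.03), the BMP antagonist Nog 1.15, 1.52, 1.98 and 1.58 CPM in irradiated APTKA and 0.110, 0.0573, 0.175 and 0.351 CPM in irradiated APTK (3.01), and the antagonist Grem1 averaged 1016 ± 68.1 CPM in irradiated APTKA and 708 ± 85.3 CPM in irradiated APTK (0.52). The ligand Inhbb rose (1.87), Bmp6 fell (-1.65), and Tgfb1 averaged 18.2 ± 2.38 CPM in irradiated APTKA and 17.8 ± 2.14 CPM in irradiated APTK, which did not pass (0.03, adjusted p = 0.830).

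Niche signals and growth factors included some of the larger single changes. Of 22 tested Wnt and R-spondin genes 7 rose and 7 fell (median 0.08). Rspo2, an R-spondin that amplifies Wnt signals, had 2.74, 2.97, 2.09 and 2.44 CPM in irradiated APTKA and 0.275, 0.229, 0.210 and 0.273 CPM in irradiated APTK (3.36), Wnt11 9.47, 8.98, 9.62 and 8.45 CPM in irradiated APTKA and 1.26, 0.803, 1.12 and 1.29 CPM in irradiated APTK (3.00), and the secreted Wnt inhibitor Sfrp1 3.28, 3.93, 3.03 and 1.76 CPM in irradiated APTKA and 19.6, 19.0, 23.4 and 13.2 CPM in irradiated APTK (-2.64). None of these 3 overlapped between groups. Of 39 tested growth factors and receptors 14 rose and 15 fell (median -0.16, and -0.011 without irradiated APTK IV). Neuregulin, Nrg1, a ligand of ERBB receptors, had 178, 157, 173 and 171 CPM in irradiated APTKA and 29.5, 26.8, 25.01 and 44.7 CPM in irradiated APTK (2.42). Pdgfra, the receptor that marks many gut fibroblasts (ENSMUSG00000029231, chr5:75152292-75198215), had 61.1, 68.4, 55.7 and 58.9 CPM in irradiated APTKA and 249.6, 309, 271 and 228 CPM in irradiated APTK (-2.11, adjusted p = 1.26e-15), and Pdgfrb averaged 443 ± 5.49 CPM in irradiated APTKA and 777 ± 50.9 CPM in irradiated APTK (-0.81). Igf1 averaged 16.0 ± 1.06 CPM in irradiated APTKA and 98.3 ± 17.7 CPM in irradiated APTK (-2.62), Hgf 104 ± 3.02 CPM in irradiated APTKA and 151 ± 20.6 CPM in irradiated APTK (-0.54), and Vegfa 440.4 ± 21.8 CPM in irradiated APTKA and 341 ± 34.1 CPM in irradiated APTK (0.37).

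Dusp6 and Spry1, feedback genes of receptor tyrosine kinase and MAPK signals, fell within a list that was divided, with 10 members higher and 14 lower of 27 tested (median -0.51). Dusp6, a phosphatase of ERK, had 8.65, 9.23, 9.39 and 10.96 CPM in irradiated APTKA and 36.5, 62.5, 39.9 and 37.4 CPM in irradiated APTK (-2.20), highest in irradiated APTK II. Spry1, an inhibitor of receptor tyrosine kinase signals, had 18.1, 16.7, 20.0 and 22.4 CPM in irradiated APTKA and 87.8, 95.6, 100.1 and 92.7 CPM in irradiated APTK (-2.29). Etv1 (-2.79) and Fos (-2.27) fell as well, and Atf3 rose. Of 16 YAP and TEAD targets 12 rose and 3 fell (median 0.45), Dlc1 (1.39) and Ankrd1 (1.23) among those that rose, while the co-activator Wwtr1 (-0.62), tissue factor, F3 (-0.59), and Crim1 (-0.19) fell. Of 23 tested adventitial and quiescent fibroblast genes 5 rose and 14 fell (median -0.72), Ackr4, Sfrp1, Ly6c1 (-2.29) and Pdgfrl (-1.94) among those that fell. Ackr3 (1.17), Klf4 (1.11), Dpt (0.97), Foxo3 (0.90) and Wnt2b (0.61) rose.

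Of 10 tested complement genes 7 fell and C3 rose (median -0.61). In the prostaglandin and bradykinin pathway 6 of 12 tested genes rose and 2 fell (median 0.20). Bdkrb1, the inducible bradykinin receptor, had 23.6, 27.5, 28.5 and 20.6 CPM in irradiated APTKA and 2.14, 2.35, 2.63 and 2.58 CPM in irradiated APTK (10.2-fold), its constitutive relative Bdkrb2 rose 4.17-fold, and the constitutive cyclooxygenase Ptgs1 fell, with 222, 236, 217 and 232 CPM in irradiated APTKA and 385, 392, 406 and 252 CPM in irradiated APTK (-0.66). Ptgis, prostacyclin synthase, was the other gene that fell (-0.29). Of 18 clock genes 10 rose and 5 fell (median 0.36), among them the repressors Nr1d1 (1.69) and Nfil3 (1.22), which rose, and Per3 (-0.64), Per2 (-0.37), Cry1 (-0.31), Rora (-0.26) and Arntl (-0.19), which fell. Fibroblast markers fell in 11 of 14 cases (median -0.68) and Twist2 rose (0.70); among pericyte and smooth muscle markers Des (0.96), Rgs5 (0.39) and Cnn1 (0.29) rose and 6 fell (median -0.42), with a summed level of 1667 to 2098 CPM in irradiated APTKA and 1895 to 2040 CPM in irradiated APTK. Tubb3, a neuronal tubulin that fibroblasts also express, rose to 114.8 ± 6.97 CPM in irradiated APTKA, against 40.9 ± 10.9 CPM in irradiated APTK (1.48). Single markers of other cell types also passed at low levels: the claudin Cldn4 rose (3.24) and Lgals4 (-1.08) and Krt18 (-0.95) fell among epithelial markers, Tek (2.23) and Kdr (1.497) rose and Pecam1 fell (-1.23) among endothelial ones, and Cd14 (1.02) and Fcgr3 (0.95) rose and Lyz2 (-1.12) and Csf1r (-0.53) fell among leukocyte ones. Csf1r did not pass without irradiated APTK IV (-0.45, adjusted p = 0.116), nor Pecam1 without irradiated APTK II and IV together (-0.89, adjusted p = 0.0902). Krt18 lost its call under 8 of 14 alternatives, among them the fit without irradiated APTK II (-0.63, adjusted p = 0.190).

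Setting both groups beside untreated fibroblasts shows which of them lay away from the untreated level. Irradiated APTKA differed from untreated in 9036 genes (61.0%), 4595 higher (31.0%) and 4441 lower (30.0%), and irradiated APTK in 6468 (43.6%), 3183 higher (21.5%) and 3285 lower (22.2%). The comparisons share the untreated libraries, so their values are given side by side only. Nfkbia averaged 163 ± 12.9 CPM in irradiated APTKA, 16.6 ± 1.12 CPM in irradiated APTK and 16.6 ± 0.590 CPM in untreated fibroblasts (log2 3.30 and 0.01 over untreated). Irradiated APTKA lay far from untreated and irradiated APTK near it, as for Tnfaip3 (4.07 for irradiated APTKA and 0.28 for irradiated APTK) and Cxcl5 (4.32 and 0.30 in the same order). Pdgfra averaged 61.0 ± 5.41 CPM in irradiated APTKA, 264 ± 34.5 CPM in irradiated APTK and 81.4 ± 5.85 CPM in untreated fibroblasts, so irradiated APTK lay farther from untreated (-0.41 for irradiated APTKA and 1.70 for irradiated APTK). Mdm2 lay on either side of untreated: 466 ± 14.6 CPM in irradiated APTKA, 201 ± 20.4 CPM in irradiated APTK and 288 ± 25.2 CPM in untreated fibroblasts (0.69 and -0.52, adjusted p = 1.29e-09 and 7.53e-07).

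The lists can be set side by side in the same way, next to the shares over all genes. Those shares were 31.0% higher and 30.0% lower than untreated in irradiated APTKA, and 21.5% higher and 22.2% lower in irradiated APTK. Targets of p53 had 15 members higher and 10 lower than untreated in irradiated APTKA, and 2 higher (Sesn1 and Plk3) and 27 lower in irradiated APTK. Interferon-stimulated genes had 0 higher and 33 lower in irradiated APTKA, and 10 higher and 1 lower (Bst2) in irradiated APTK, where Ifit3 averaged 6.03 ± 1.49 CPM in irradiated APTKA, 85.7 ± 29.2 CPM in irradiated APTK and 54.8 ± 5.07 CPM in untreated fibroblasts. The amino acid list had 2 higher (Hars and Tars) and 31 lower in irradiated APTKA, and 1 higher (Pycr1) and 27 lower in irradiated APTK. Slc7a5 thus averaged 29.7 ± 1.37 CPM in irradiated APTKA, 169 ± 19.6 CPM in irradiated APTK and 326 ± 20.6 CPM in untreated fibroblasts, and Trib3 5.25 ± 0.746, 40.5 ± 20.3 and 160.5 ± 31.4 CPM in that order. Both media lay below untreated, and irradiated APTKA lowest. Glycolysis genes had 16 higher and 4 lower (Slc16a1, Pfkm, Pfkp and Gpi1) in irradiated APTKA, and 19 higher and 2 lower (Hk2 and Slc16a1) in irradiated APTK, Slc16a3 averaging 109.8 ± 7.67, 111 ± 22.0 and 16.0 ± 2.21 CPM in that order. The plot of levels per library shows these genes with their 12 values each.

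The same comparison of organoid lines could be made without irradiation, on other libraries. APTKA and APTK medium without irradiation differed in 9324 genes (62.9%), 4607 higher (31.1%) and 4717 lower (31.8%). Over the 14820 genes the log2 fold changes of the irradiated and the plain arm had Pearson's r of 0.916 and Spearman's rho of 0.898 (across genes, which are not independent replicates), and r of 0.897 without irradiated APTK IV. There were 7880 genes called in the same direction in both arms, which is 86.7% of the irradiated calls and 84.5% of the plain calls, and 10 called in opposite directions. Nfkbia, for example, had a log2 fold change of 3.29 in the irradiated arm and 3.43 in the plain arm, Stmn4 6.75 and 6.55, Ifit3 -3.82 and -3.44, and Pdgfra -2.11 and -2.06. Among mitosis genes 3 were higher and 18 lower in the irradiated arm, and 6 higher and 5 lower in the plain arm, where Cdk1 (-0.76) and Foxm1 (-0.94) fell and Prc1 (0.91) rose. By the test of the difference itself, 0 of the 31 mitosis genes differed between arms with all libraries, where 0.182% of all genes did. Without irradiated APTK IV, where 0.825% of all genes had a lower difference, 5 mitosis genes did. They were Ccna2 (-0.48), Cdca8 (-0.66), Hmmr (-0.81), Kif20a (-0.60) and Kif11 (-0.58).

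**Figure D3:**
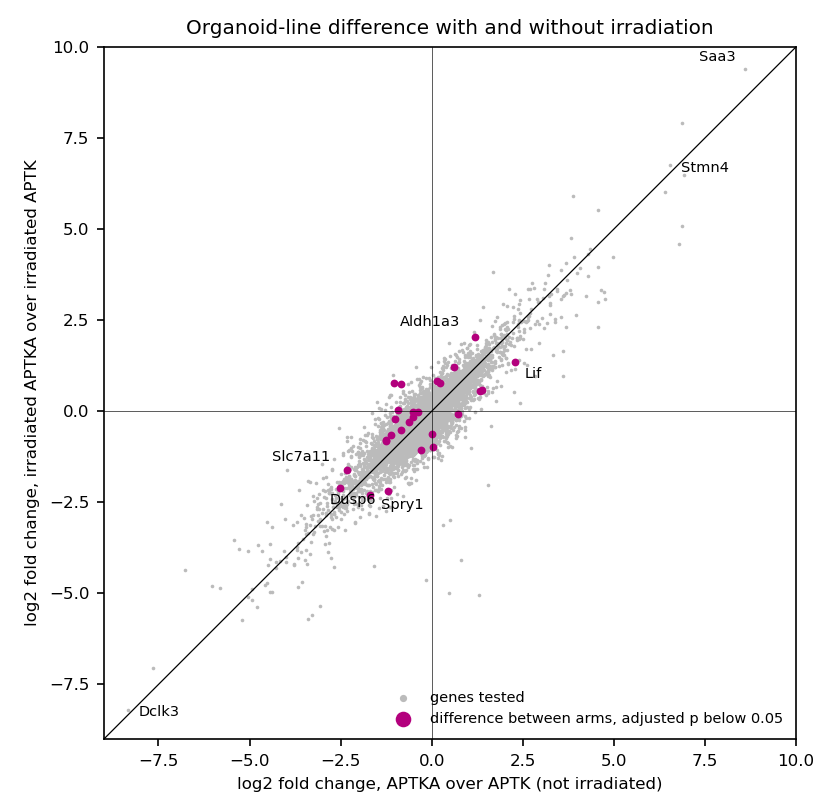
Log2 fold change of APTKA over APTK medium without irradiation (horizontal axis) and with irradiation (vertical axis) for 14820 genes, with the line of equal change. Purple points are the 27 genes whose change differed between arms; Dusp6, for example, lies at -1.19 without and -2.20 with irradiation.

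The difference between arms was tested as the change of the irradiated arm minus the change of the plain arm, and 27 genes (0.182%) passed, 18 higher (0.121%) and 9 lower (0.0607%), with 1337 at an unadjusted p below 0.05. Without irradiated APTK IV 307 of 15037 genes passed (2.04%), 183 higher (1.22%) and 124 lower (0.825%), and these include all 27. The count thus changes with the libraries used. Irradiated APTK IV was singled out for lying near plain APTK medium, so the larger count without it follows in part from that choice. Leaving out irradiated APTK III gave 5 higher and 5 lower, and leaving out irradiated APTK II gave 34 higher. Without irradiated APTKA I there were 2 higher and 3 lower, without II 10 higher and without III 4 higher. In the plain arm the counts were 2 higher and 2 lower without APTKA II, 6 and 4 without III, 2 and 4 without IV, 4 and 3 without APTK II, and 3 and 4 without APTK IV. Of the 16 genes that the rule named from the difference, Plk3, Spry2, Sesn2 and Sox11 passed under all 23 alternatives and the other 12 lost their call under at least 1. Gja1 lost it under 1 of 23, Tnfrsf21 under 5, Adra1b and Slc1a4 under 7, Dusp6 and Slc7a11 under 8, Bcl2 under 10, Id1 under 11, Aldh1a3 and Lif under 12, and Lrrc17 and Nfil3 under 16, and none of the 16 changed direction.

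Feedback inhibitors of receptor tyrosine kinases were among the genes with a lower difference. Dusp6 had 8.65, 9.23, 9.39 and 10.96 CPM in irradiated APTKA, 36.5, 62.5, 39.9 and 37.4 CPM in irradiated APTK, 11.7, 15.1, 12.5 and 13.5 CPM in plain APTKA and 29.8, 29.8, 30.5 and 30.7 CPM in plain APTK medium. The gap between lines was wider in the irradiated arm, a difference of -1.01 on the log2 scale (SE 0.19, adjusted p = 0.0227). Spry2 had 51.9, 70.6, 59.7 and 61.4 CPM in irradiated APTKA, 114, 148, 138 and 114 CPM in irradiated APTK, 99.2, 103, 109 and 102 CPM in plain APTKA and 126, 114.9, 141 and 121 CPM in plain APTK medium (-0.79, adjusted p = 0.00931). The irradiated APTKA libraries were the lowest of the 4 groups, with no overlap. Spry1 differed by -0.60. Without irradiated APTK IV, 1.22% of all genes had a higher difference and 0.825% a lower one. Of 27 immediate early and MAPK feedback genes 7 were then lower, Etv4 (-0.97) and Dusp4 (-0.53) among them, and 1 higher, Fosl2 (0.58). Called higher and lower were 6 and 3 of 27 proteases and inhibitors, and 6 and 5 of 39 growth factors and receptors. The stress response list gave 5 and 0 of 20, and the amino acid list 5 and 0 of 35. Cholesterol genes gave 4 and 1 of 32, and hypoxia genes 4 and 1 of 28. Monocyte and lymphocyte chemokines gave 0 and 3 of 9, glycolysis genes 3 and 0 of 24, and replication genes 0 and 3 of 39. The interferon-stimulated (35), endoplasmic reticulum (28) and YAP (16) lists gave 0 and 0.

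Lif had 13.7, 17.7, 18.0 and 13.5 CPM in irradiated APTKA, 6.10, 4.99, 7.26 and 5.93 CPM in irradiated APTK, 24.7, 19.1, 19.4 and 18.9 CPM in plain APTKA and 3.88, 4.40, 4.28 and 4.41 CPM in plain APTK medium, a smaller rise in the irradiated arm (difference -0.92, adjusted p = 0.0303). Id1, a BMP target, had 4.32, 5.11, 5.90 and 5.23 CPM in irradiated APTKA, 11.9, 8.72, 11.5 and 8.43 CPM in irradiated APTK, 6.12, 5.54, 5.74 and 5.37 CPM in plain APTKA and 5.76, 5.47, 5.38 and 5.52 CPM in plain APTK medium. Only the irradiated APTK libraries stood above the others, and the difference was -1.03 (adjusted p = 0.0250). The gap junction gene Gja1 (-0.81), the p53-regulated kinase Plk3 (-0.79), the death receptor Tnfrsf21 (-0.78) and the survival gene Bcl2 (-0.66) made up the rest of the 9.

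Among genes with a higher difference, Aldh1a3, which makes retinoic acid, had 132, 109, 138 and 135 CPM in irradiated APTKA, 34.9, 32.3, 30.4 and 26.9 CPM in irradiated APTK, 87.6, 61.6, 67.8 and 62.3 CPM in plain APTKA and 28.5, 35.3, 27.0 and 31.7 CPM in plain APTK medium. The rise with APTKA was larger in the irradiated arm (0.86, adjusted p = 0.0273). Slc7a11 had 4.79, 4.61, 3.96 and 3.98 CPM in irradiated APTKA, 12.5, 14.9, 11.9 and 13.6 CPM in irradiated APTK, 2.83, 2.91, 2.65 and 2.98 CPM in plain APTKA and 16.9, 12.6, 13.7 and 14.4 CPM in plain APTK medium, a smaller fall in the irradiated arm (0.74, adjusted p = 0.0249). The stress sensor Sesn2 averaged 79.2 ± 2.11 CPM in irradiated APTKA, 80.4 ± 5.04 CPM in irradiated APTK, 78.0 ± 6.20 CPM in plain APTKA and 112 ± 3.93 CPM in plain APTK medium, with a line difference in the plain arm and none past the threshold in the irradiated arm; their difference was 0.50 (adjusted p = 0.00931). The adrenergic receptor Adra1b (0.96), Lrrc17 (0.81), the clock repressor Nfil3 (0.60), the transcription factor Sox11 (0.53), the amino acid transporter Slc1a4 (0.48), Pdgfrb (0.43) and Smoc2 (0.40) also passed, as did 8 genes outside the naming rule, among them the transporter Slc38a2 (0.37) and the sterol enzyme Sqle (0.46), named here after their values were seen.

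Genes whose difference passed without irradiated APTK IV were named by the same rule in the fit without it. That library was singled out in these data for its nearness to plain APTK medium, with Spp1 as the plainest case. Its removal therefore favours larger differences between arms and a smaller spread, and the p-values without it carry that choice. Spp1 (-1.78 with all libraries, adjusted p = 0.197) differed by -2.13 without IV (SE 0.11, adjusted p = 6.97e-12), with irradiated APTK I to III at 60.6 to 67.0 CPM. Mmp10, a stromelysin, had 28.1, 29.1, 26.8 and 27.0 CPM in irradiated APTKA, 6.93, 8.37, 6.91 and 0.859 CPM in irradiated APTK, 20.4, 33.4, 35.0 and 35.0 CPM in plain APTKA and 1.08, 1.72, 1.28 and 1.06 CPM in plain APTK medium, and differed by -2.27 with all libraries (adjusted p = 0.1502) and by -2.66 without IV (adjusted p = 7.72e-07). In both genes irradiated APTK IV alone lay at the plain level. The pseudokinase Trib2 (-1.62), the GDNF receptor Gfra1 (-1.53), the tetraspanin Cd53 (-1.49), the lipase inhibitor Angptl4 (-1.29) and Mmp9 (-1.15) had lower differences without IV, and Igfbp5 (1.63), Trib3 (1.47), the angiopoietin Angpt4 (1.26), the calcium channel Cacna1a (1.24), Fbln7 (1.22), Musk (1.15), the retinoic acid carrier Crabp2 (1.13) and Tmtc1 (1.12) higher ones; none of these passed with all libraries.

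**Figure D4:**
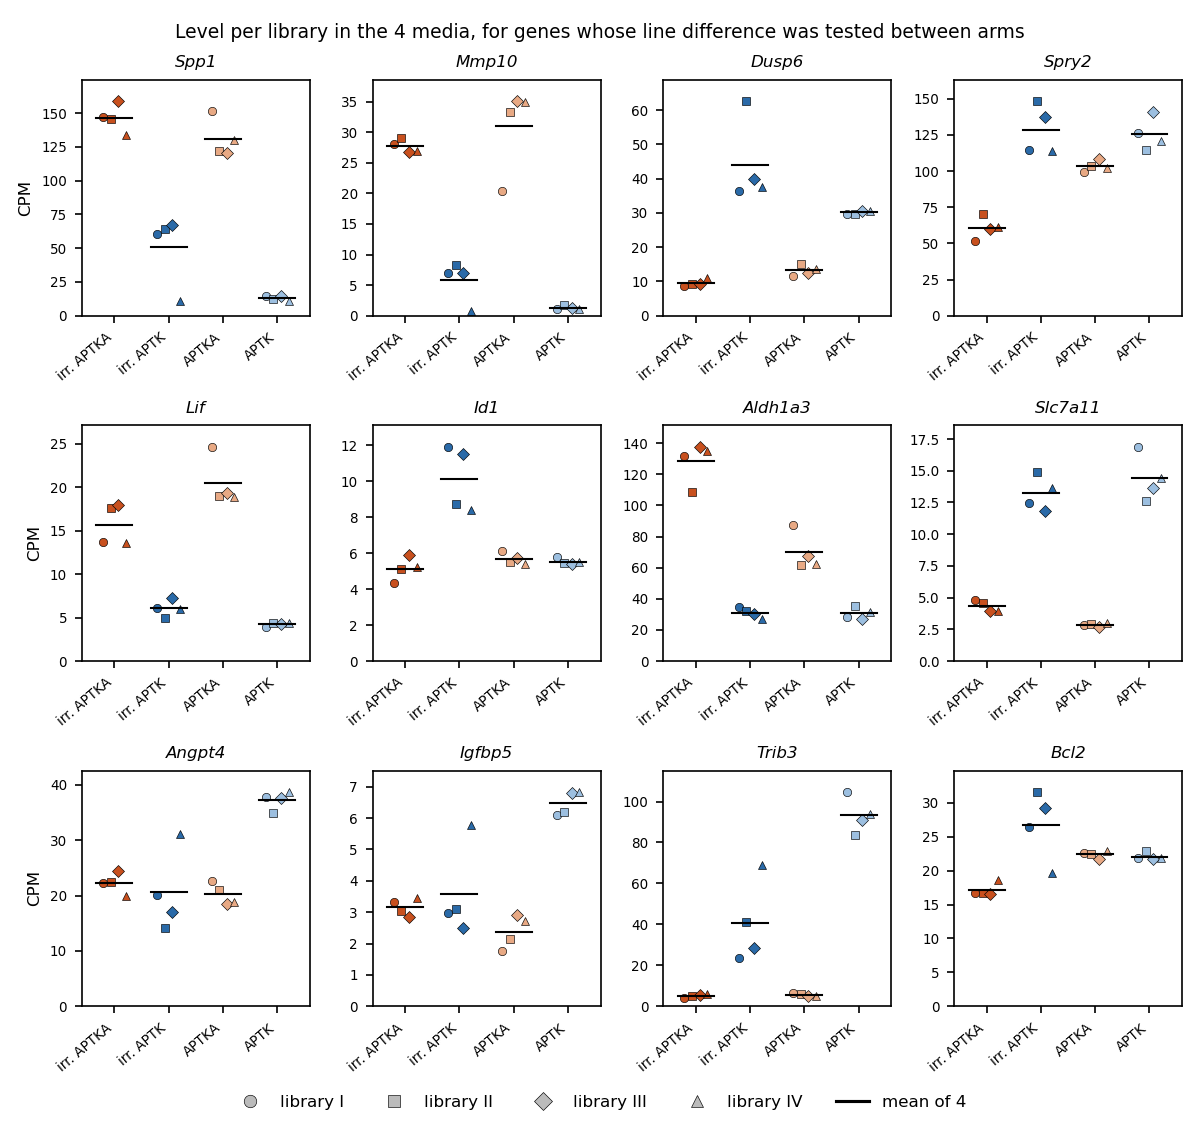
CPM (vertical axes, from 0) of 12 genes in each library of the 4 conditioned media, irradiated APTKA, irradiated APTK, plain APTKA and plain APTK; symbols mark libraries I to IV and bars the mean of 4. Irradiated APTK IV lies at the level of plain APTK medium for Spp1 (10.6 CPM) and Mmp10 (0.859 CPM), while Dusp6 and Spry2 are lowest in irradiated APTKA.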

How the data were processed

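Gene-level read counts were deposited by the authors, 1 table per library, with 47729 Ensembl gene identifiers. The submitters' processing notes name STAR 2.5.2a, the counter featureCounts 1.5.0-p1, the build mm10 and bcl2fastq 2.20.0.422. Which annotation was counted, whether by strand, and how multi-mapping reads were treated is not given in the sources used here. The deposited counts are whole numbers and were taken as they stand. Names and exon overlaps came from GENCODE M21 (47224 identifiers matched, 505 did not) and promoter sequences from RefSeq on GRCm38.p6.

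Genes were kept by edgeR's filterByExpr over the 5 groups, which left 14820. One model with a mean per group was fitted to all 20 libraries with edgeR 4.0.16 in R 4.3.3 (TMM scaling, glmQLFit with robust estimation, glmQLFTest), so that all groups share 1 estimate of the spread. Adjusted p-values are Benjamini-Hochberg over all genes tested, and a gene was called at an adjusted p below 0.05. CPM are TMM-scaled, errors of CPM are SD over 4 libraries, and SE belong to log2 fold changes. Fold changes are irradiated APTKA over irradiated APTK unless stated. "Not overlapping" means that every library of one group lay above every library of the other. Counting intervals and floors (3 counts over the group) cover counting error only, and the number of libraries limits the precision otherwise. No 2 libraries of a group agreed within sampling noise: chi-square per degree of freedom was 4.45 to 79.9.

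The libraries compared were chosen by their labels. The gene lists and the alternatives were chosen with earlier results of these data known, so no list count is independent evidence. Named are the 12 largest rises and 12 largest falls among called genes that did not overlap and had a mean log2 CPM of at least 2, predicted genes left out, the 8 largest differences between arms each way without the condition on overlap, up to 4 called members of each list and the largest one against its majority, and some genes fixed whatever they did. Alternatives were other scalings, DESeq2 1.42.0, other filters, a replicate block and leaving out libraries. Libraries of equal replicate number were not paired in the main fit, and the labels do not say whether they share a culture or batch.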

Additional observations from a re-analysis of the deposited data

Results flagged for a closer look

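In 222 named genes the 4 libraries of both irradiated groups were examined, 444 groups of values in all, for a library far from the other 3 by Dixon's criterion. It was met for 19 genes, 9 in irradiated APTKA and 10 in irradiated APTK, and chance gives about 1 in 20 groups. In irradiated APTKA, library IV stood apart for Aurkb (2.76 CPM), Bcl2 (18.6 CPM), Dact1 (32.1 CPM), Fmod (0.788 CPM), Herpud1 (54.7 CPM) and Nfil3 (26.3 CPM), library III for Gclm (16.9 CPM), and library II for P4ha3 (4.77 CPM) and Sox11 (68.1 CPM). Irradiated APTKA IV also stood apart on the second principal component, at 0.303. In irradiated APTK, library IV stood apart for the ferritin subunit Fth1 (391.9 CPM), the proteoglycan Prelp (17.1 CPM), the cyclooxygenase Ptgs1 (251.8 CPM) and Spp1 (10.6 CPM). Library II stood apart for Dusp6 (62.5 CPM), Grem1 (835.9 CPM), Jak2 (100.98 CPM) and the replication origin gene Orc1 (2.01 CPM), library I for Bmp2 (0.220 CPM) and library III for Traf1 (0.0351 CPM, a single count).

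Named genes whose change differed between the irradiated and the plain arm by the test of the difference itself are listed with the change of the irradiated arm minus that of the plain arm, on the log2 scale. Lower differences were those of Id1 (-1.03), Dusp6 (-1.01), Lif (-0.92), Gja1 (-0.81), Spry2 (-0.79), Plk3 (-0.79), Tnfrsf21 (-0.78), Bcl2 (-0.66) and Spry1 (-0.60). Higher differences were those of Adra1b (0.96), Aldh1a3 (0.86), Lrrc17 (0.81), Slc7a11 (0.74), Nfil3 (0.60), Sox11 (0.53), Sesn2 (0.50), Slc1a4 (0.48), Pdgfrb (0.43) and Smoc2 (0.40).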

How the results depend on the processing

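Counts of genes between irradiated APTKA and irradiated APTK, between each of them and untreated fibroblasts, and between the plain media stayed within 1.5 times under every alternative run. For irradiated APTKA against irradiated APTK they ran from 4262 to 4706 higher and 4339 to 4472 lower when libraries were left out in turn, and upper quartile scaling gave 3789 higher and 5412 lower. The difference between arms moved: 158 higher and 51 lower with no filter, 75 and 39 with DESeq2, 2 to 183 higher and 2 to 124 lower when each of 16 libraries was left out, and 247 and 111 without irradiated APTK II and IV together, an alternative added after seeing the data. With the replicate block 4446 genes were higher and 4585 lower between the irradiated media, and the difference between arms had 12 and 10. Deviations from the group mean correlated at -0.0858 to 0.0538 over the 4 pairs of irradiated libraries with equal numbers. This does not settle whether equal numbers share a culture or batch. Among single genes between the irradiated media, 22 values changed sign, none past the threshold. They were Adra1b at -0.050 (upper quartile), -0.015 (5 CPM floor) and from -0.041 to 0.15 (range with libraries left out), Cxcl12 at -0.058, -0.023 and from -0.052 to 0.12 in that order, and Tgfb1 at -0.042, -0.0082 and from -0.051 to 0.10, with -0.023 without both libraries. Sesn2 gave 0.016 without filter, from -0.043 to 0.041 with libraries left out and 0.041 without both, and Slc16a3 0.023 without filter and from -0.11 to 0.067 with libraries left out. The median of the leukocyte markers ran from -0.35 to 0.15 with libraries left out, and that of growth factors and receptors 0.061 without both. Calls of 10 genes, Col1a1, Cdkn2a, Csf1r, Krt18, C4a, Cxcl15, Tap1, Cxcl10, Rad51ap1 and Pecam1, were lost under at least 1 alternative, and Mki67 (6 alternatives), Lrrc17 and Slc16a3 (1 each) gained a call; the cause was not tested. Of 74 counts of list members higher or lower, 59 stayed within 1.5 times and 15 did not. With the 5 CPM floor, which tests fewer genes, 4 inflammatory mediators were higher in place of 12, 3 CXC chemokines in place of 5, 9 proteases in place of 14 and 2 Wnt genes in place of 7, and 4 complement genes were lower in place of 7. Contractile genes higher numbered 4 in place of 9 without irradiated APTK II and IV, and respiratory chain genes higher 4 with upper quartile scaling and 11 without filter in place of 7; the remaining 8 counts were of 5 members or fewer. Of the 16 genes named from the difference between arms, 12 lost their call under at least 1 of 23 alternatives, Aldh1a3, Lrrc17 and Nfil3 with the replicate block among them. Low counts limit Csf2, Traf1, Tnip3 and Dclk3.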
